A study of Mus musculus with 6 samples.

Results

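Metallothioneins and the genes that move zinc across membranes were followed in mouse blastocysts cultured with extracellular vesicles from human Fallopian tubal fluid. The set held 10 genes of the 55774 in the deposited table. They were the metallothioneins *Mt1* and *Mt2*, the transcription factor *Mtf1*, the exporters *Slc30a1*, *Slc30a5* and *Slc30a9*, and the importers *Slc39a1*, *Slc39a4*, *Slc39a6* and *Slc39a10*. *Mt1* and *Mt2* were chosen by their lower FPKM in oEV-EMT in this same comparison, so their values are given as a description without a test. The other 8 genes were listed for their function, and the question was whether they followed.

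The 6 libraries were made from pools of 10 blastocysts each. Wild-type two-cell embryos from the oviducts of ICR mice were cultured to blastocysts in CZB medium with vesicles. In oEV-EMT (n = 3 libraries) the vesicles came from women with endometriosis. In oEV-ctrl (n = 3) they came from women with uterine fibroids by the sample labels, whereas the methods name cervical intraepithelial neoplasia, and no library without vesicles was analysed here. The labels do not say whether the pools of a group shared a culture drop or a vesicle preparation, so the p-values measure the spread between these pools, which may be technical.

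Metallothioneins are small, cysteine-rich proteins that hold zinc and copper ions and release them again. When free zinc rises, the zinc-finger protein MTF1 binds metal response elements in DNA and switches on *Mt1*, *Mt2* and *Slc30a1*. Proteins of the SLC30 family (ZnT) carry zinc out of the cytosol, and those of the SLC39 family (ZIP) carry it in. Mammalian eggs accumulate zinc before fertilization and release part of it at activation, and metallothionein genes are transcribed in the preimplantation embryo.

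The metallothionein genes lie in a cluster on the plus strand of chromosome 8 (GRCm38, GENCODE M21). *Mt4* starts at 94137197, *Mt3* spans 94152607 to 94154146, *Mt2* spans 94172664 to 94173568 and *Mt1* spans 94179082 to 94180327, so that 5513 bases separate *Mt2* from *Mt1*. Promoter sequences from RefSeq (GRCm38.p6), 250 bases before to 50 bases after a transcript start, were held for 8 of the 10 genes, all but *Slc39a4* and *Slc39a6*. The windows of *Mt1* (chr8:94178839-94179138), *Mt2* (chr8:94172368-94172667) and *Slc30a1* (chr1:191906531-191906830), all on the plus strand, are shown because these are the classical MTF1 targets among the genes. Capitals mark the 7-base core of the metal response element, searched as TGCACNC and TGCGCNC on both strands, where overlapping matches counted separately.
Mt1: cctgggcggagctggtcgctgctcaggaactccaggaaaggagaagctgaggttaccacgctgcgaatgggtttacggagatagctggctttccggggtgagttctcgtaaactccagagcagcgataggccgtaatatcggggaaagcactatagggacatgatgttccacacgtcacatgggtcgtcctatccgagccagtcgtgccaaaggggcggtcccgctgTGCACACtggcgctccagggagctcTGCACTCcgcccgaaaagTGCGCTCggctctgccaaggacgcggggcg
Mt2: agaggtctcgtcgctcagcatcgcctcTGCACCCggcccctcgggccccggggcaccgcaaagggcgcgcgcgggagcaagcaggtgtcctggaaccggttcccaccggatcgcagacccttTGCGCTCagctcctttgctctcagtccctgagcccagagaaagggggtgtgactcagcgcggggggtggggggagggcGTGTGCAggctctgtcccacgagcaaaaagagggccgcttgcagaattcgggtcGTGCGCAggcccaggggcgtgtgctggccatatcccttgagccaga
Slc30a1: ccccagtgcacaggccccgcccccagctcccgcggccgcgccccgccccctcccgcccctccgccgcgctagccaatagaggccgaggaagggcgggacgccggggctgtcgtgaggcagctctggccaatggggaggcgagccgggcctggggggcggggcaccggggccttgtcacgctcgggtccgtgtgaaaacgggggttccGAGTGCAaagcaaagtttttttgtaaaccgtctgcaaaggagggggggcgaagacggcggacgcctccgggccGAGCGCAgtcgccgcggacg

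The *Mt2* window held 4 core matches, the *Mt1* window 3 and the *Slc30a1* window 2. Over all 32851 promoter windows, 25.7% held at least 1 match, 7.11% at least 2, 1.97% at least 3 and 0.517% at least 4. Among the other members, *Slc30a5* had 1 match, and *Mtf1*, *Slc30a9*, *Slc39a1* and both windows of *Slc39a10* had 0. GENCODE M21 starts differ from the RefSeq starts used here. Relative to these, *Mt1* transcripts start 7 bases upstream and 122 and 152 bases downstream, *Mt2* transcripts 46 and 242 bases downstream, and *Slc30a1* transcripts 14 bases upstream and 475 bases downstream, so further matches could lie outside the windows. A match describes letters in the window and does not show binding.

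Levels were in FPKM, which divides the fragments of a gene by its transcript length in kilobases and by the size of the library, so that levels can be compared between genes. All 10 members passed the filter of at least 1 FPKM in at least 3 libraries, as did 11924 genes in all. The total count of each library was not given. The commonest low value of single-transcript genes, taken as 1 read pair, put the depth at about 17.8 to 36.8 read pairs per FPKM and kilobase, a 2.07-fold range in which oEV-ctrl 1 was the shallowest and oEV-EMT 1 the deepest library. Only 33.2% to 41.1% of low values lay on whole or 0.5 steps (within 0.05 of a 0.5 step), so this depth and all read pairs given below are estimates. Defining markers of the blastocyst lineages were present in all libraries. The summed FPKM of 7 trophectoderm markers was 3123 to 4734 in oEV-EMT and 3075 to 4826 in oEV-ctrl, that of 6 epiblast markers 106 to 145 against 53.2 to 104, and that of 5 primitive endoderm markers 30.3 to 46.9 against 30.6 to 36.1. All 7 cumulus or granulosa markers and all 5 oviduct markers stayed under 1 FPKM in every library. Of 7 oocyte markers, *Zp2* and *Zp3* alone reached 1 FPKM in any library, and the list summed to 3.92 to 6.95 in oEV-EMT and 2.35 to 3.31 in oEV-ctrl. Without rescaling, the summed epiblast and oocyte lists were higher in every oEV-EMT library, as were 18.1% of all genes tested. The epiblast margin was narrow, at 106 against 104 FPKM. The part of these lists in the results was not tested.

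The *Mt1* mRNA was abundant in oEV-ctrl and low in 2 of the 3 oEV-EMT pools. It had 2979, 581 and 563 FPKM in oEV-EMT 1, 2 and 3 and 5973, 5275 and 4755 FPKM in oEV-ctrl 1, 2 and 3. The groups did not overlap, and oEV-EMT 1 stood apart from the other oEV-EMT libraries by 5.29-fold against the lowest. The mean was 1374 ± 1389.9 FPKM (SD, n = 3) in oEV-EMT and 5334 ± 611 FPKM (SD, n = 3) in oEV-ctrl, 3.88-fold higher in oEV-ctrl. On the scale of log2(FPKM + 1) the difference between groups was -2.42, and -3.21 without oEV-EMT 1. In whole pools of embryos, fewer cells that express a gene and less RNA per cell cannot be told apart.

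The *Mt2* mRNA followed the same pattern with a smaller gap between the groups. It had 2953, 650.2 and 397 FPKM in oEV-EMT and 5045, 3280.3 and 4288 FPKM in oEV-ctrl, libraries 1 to 3 in order. The lowest oEV-ctrl value was 1.11-fold above the value of oEV-EMT 1, so the separation rests on a narrow margin in that library. The means were 1333 ± 1408 FPKM and 4205 ± 885 FPKM (SD, n = 3 each), and the log2 difference was -2.18, or -3.02 without oEV-EMT 1. *Mt1* and *Mt2* together made up 0.459%, 0.0910% and 0.0709% of the summed FPKM in oEV-EMT 1, 2 and 3 and 0.710%, 0.636% and 0.655% in oEV-ctrl 1, 2 and 3. The ratio of *Mt1* to *Mt2* lay between 0.894 and 1.61 in all libraries, and the groups overlapped in it.

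By log2 difference *Mt1* ranked 5 and *Mt2* ranked 7 from the lowest among the 11924 genes, values that chose these genes in the first place. By mean level they ranked 62 and 78. Among 149 genes with a mean above 1000 FPKM on the log2 scale, 6 had a log2 difference of -1 or lower, namely *Mt1*, *Mt2*, *Cox7c*, *mt-Rnr1*, *Gm10443* and *Gm29216*. The antisense gene *Gm45774* covers 73.5% of the *Mt2* exon bases on the opposite strand. It had 16.02, 3.77 and 3.53 FPKM in oEV-EMT and 17.5, 21.6 and 13.1 FPKM in oEV-ctrl, and since no stranded counting is stated, its reads and those of *Mt2* cannot be told apart.

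**Figure D1:**
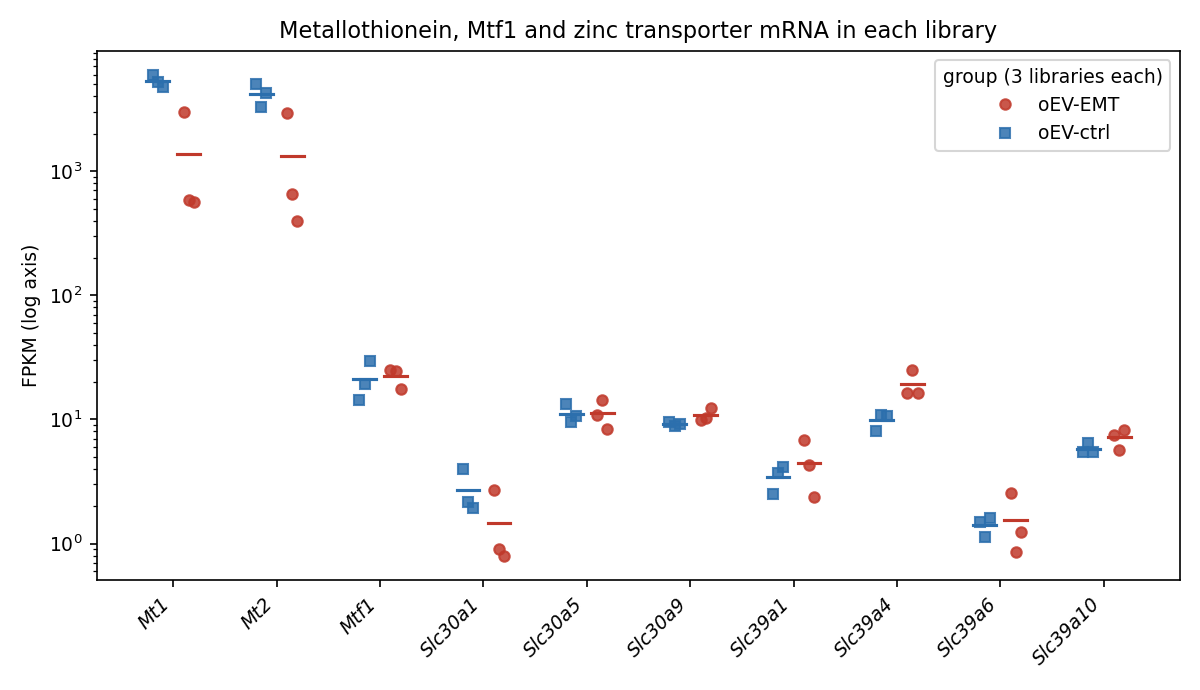
FPKM of the 10 genes on a log axis, with 1 point per library, circles for oEV-EMT and squares for oEV-ctrl, and a bar at each mean (n = 3). *Mt1* and *Mt2* lie near 5000 in oEV-ctrl (means of 5334 and 4205), and oEV-EMT 1 is the highest oEV-EMT point in both, while the other genes lie below 30 FPKM.

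*Mt4*, a metallothionein known from stratified epithelia and not among the 10 genes, was low throughout. It had 0.954, 2.06 and 0.719 FPKM in oEV-EMT and 1.74, 3.67 and 5.23 FPKM in oEV-ctrl. The groups overlapped, with oEV-EMT 2 above oEV-ctrl 1. The log2 fold change was -0.99 (limma adjusted p = 0.221, standard error 0.33), and these values rest on about 7 to 67 read pairs. After median-of-ratios scaling, which sets the median ratio of every library to a common reference to the same value, the groups of *Mt4* no longer overlapped. Under that scaling 10.3% of all genes lay lower in oEV-EMT without overlap. In oEV-EMT only library 2 reached 1 FPKM, so *Mt4* passed the filter through oEV-ctrl, where it was higher. *Mt3*, a metallothionein of the brain, was at or under 0.0784 FPKM in all libraries and was not tested.

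Of the 8 other members, 0 were called by limma (Benjamini-Hochberg adjusted p of at most 0.05 over all genes and a log2 fold change of 1 or more in size), where 0 of 11924 genes, or 0%, were called. Their adjusted p-values ran from 0.165 to 0.988, and the smallest over all genes was 0.0934. At an unadjusted p of at most 0.05, 0 of the 8 were lower and 1, *Slc39a4*, was higher in oEV-EMT, beside 2.55% and 12.8% of all genes. The groups were apart with oEV-EMT lower in 0 of the 8, and apart with oEV-EMT higher in 2, *Slc30a9* and *Slc39a4*, beside 4.34% and 18.1% of all genes. The median log2 fold change of the 8 was 0.18, against 0.17 over all genes. Log2 fold changes of single genes below still hold that median shift, unless given relative to all genes or after rescaling. Relative to all genes *Mtf1* was at -0.042, *Slc30a5* at -0.18, *Slc39a1* at 0.055, *Slc39a6* at -0.14 and *Slc39a10* at 0.077. After median-of-ratios scaling the median over all genes was 0.011, the shares of all genes without overlap became 10.3% lower and 9.82% higher, and of the 8 only *Slc39a4* was still higher without overlap.

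*Mtf1*, which encodes the zinc sensor, did not share the pattern of *Mt1* and *Mt2*. It had 25.2, 24.6 and 17.6 FPKM in oEV-EMT and 14.4, 19.3 and 29.5 FPKM in oEV-ctrl. The groups overlapped over nearly their whole range, and oEV-ctrl 3 was the highest library. The log2 fold change was 0.13 (limma adjusted p = 0.849, standard error 0.28), and its sign turned to -0.057 after median-of-ratios and -0.074 after upper quartile scaling. The gene lies on the plus strand of chromosome 4 from 124802104 to 124849800 (GRCm38), and *1110065P20Rik* overlaps 8.09% of the *Mtf1* exon bases on the opposite strand.

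*Slc30a1* encodes ZnT1, the exporter of the plasma membrane and a target of MTF1. It had 2.72, 0.897 and 0.795 FPKM in oEV-EMT 1, 2 and 3 and 4.01, 2.17 and 1.95 FPKM in oEV-ctrl 1, 2 and 3. The groups overlapped through oEV-EMT 1, and the lowest values were those of oEV-EMT 2 and 3, as for *Mt1* and *Mt2*. Those lowest values lay under the filter of 1 FPKM, so *Slc30a1* passed it through oEV-ctrl, where it was higher. The means were 1.47 ± 1.08 FPKM and 2.71 ± 1.13 FPKM (SD, n = 3 each), 1.84-fold higher in oEV-ctrl. This gave a log2 fold change of -0.63 (limma adjusted p = 0.378, standard error 0.32) and -0.80 relative to all genes, and did not pass the test. Without oEV-EMT 1 it was -0.97 with an adjusted p of 0.180 from limma, and without oEV-ctrl 1 it was -0.39 with an adjusted p of 0.733. With a pseudocount of 0.1 in place of 1 it was -0.97, since the log2(FPKM + 1) scale understates the change of low genes. The values rest on about 57 to 296 read pairs per library.

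Within oEV-EMT, library 1, also the deepest by the estimate above, had the highest and library 3 the lowest value of *Mt1*, *Mt2*, *Slc30a1*, *Mtf1* and *Slc39a1*, but of no other member. In oEV-ctrl, library 1 had the highest value of *Mt1*, *Mt2* and *Slc30a1*, and also of *Slc30a5* and *Slc30a9*. The range within oEV-EMT was 5.29-fold for *Mt1*, 7.43-fold for *Mt2* and 3.42-fold for *Slc30a1*, and within oEV-ctrl 1.26-fold, 1.54-fold and 2.06-fold. These orders were noticed after the values were seen, and the part of depth in them was not tested.

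**Figure D2:**
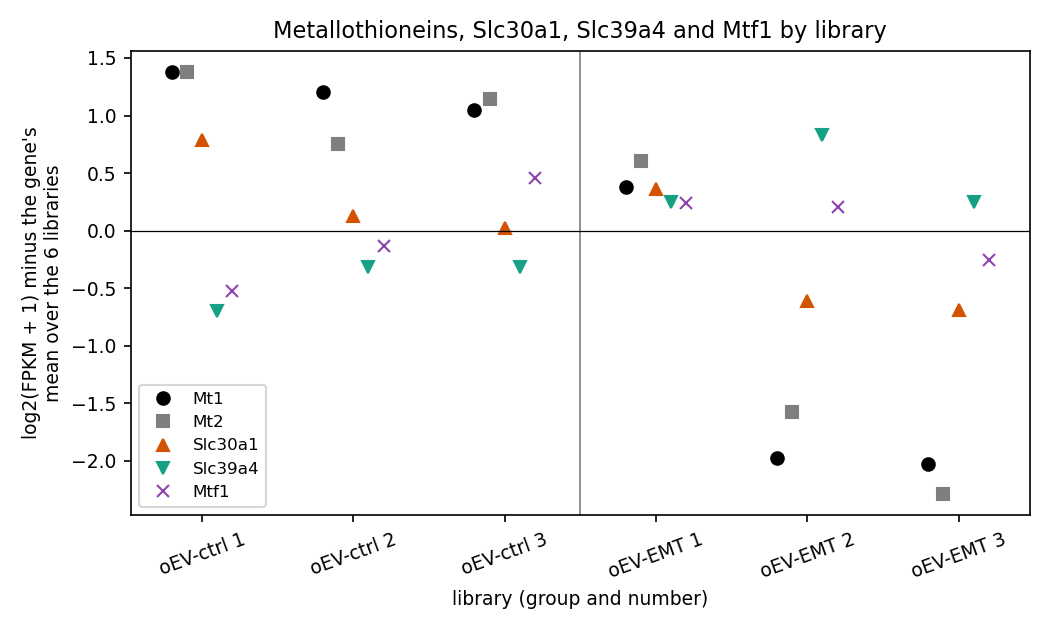
Log2(FPKM + 1) of 5 genes, each less its mean over the 6 libraries, by library with oEV-ctrl on the left and oEV-EMT on the right. *Mt1*, *Mt2* and *Slc30a1* are lowest in oEV-EMT 2 and 3 (*Mt1* at -1.98 and -2.03, *Slc30a1* at -0.61 and -0.69), where *Slc39a4* is at 0.83 and 0.25.

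*Slc30a5*, which encodes ZnT5 of the secretory pathway, had 10.9, 14.3 and 8.36 FPKM in oEV-EMT and 13.2, 9.57 and 10.6 FPKM in oEV-ctrl. The groups overlapped, at a log2 fold change of -0.010 (limma adjusted p = 0.988, standard error 0.25). *Slc30a9*, which encodes ZnT9, a zinc transporter of mitochondria, had 9.93, 10.2 and 12.5 FPKM in oEV-EMT and 9.48, 8.81 and 9.11 FPKM in oEV-ctrl. Each oEV-EMT library exceeded each of oEV-ctrl, but the log2 fold change of 0.22 (limma adjusted p = 0.638, standard error 0.21) was 0.051 relative to all genes, and the groups overlapped after median-of-ratios scaling.

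*Slc39a4* differed from *Mt1* and *Mt2* in direction. It encodes ZIP4, an importer whose mRNA and protein are known to rise when zinc is scarce. It had 16.4, 25.04 and 16.4 FPKM in oEV-EMT and 8.005, 10.8 and 10.7 FPKM in oEV-ctrl. Every oEV-EMT library exceeded every oEV-ctrl library, and oEV-EMT 2 was the highest. The means were 19.3 ± 5.003 FPKM and 9.83 ± 1.58 FPKM (SD, n = 3 each), 1.96-fold higher in oEV-EMT. The log2 fold change was 0.89 (limma adjusted p = 0.165, standard error 0.24), or 0.72 relative to all genes, and did not pass the test. With each library left out in turn it lay between 0.69 and 0.98, and over all alternatives its adjusted p lay between 0.134 and 0.609. The gene lies on the minus strand of chromosome 15 from 76612383 to 76617384 (GRCm38), and its values rest on about 220 to 932 read pairs.

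The other importers among the members lay near the median of all genes. *Slc39a10*, which encodes ZIP10 and is repressed by MTF1 when zinc is high, had 7.48, 5.72 and 8.27 FPKM in oEV-EMT and 5.48, 6.50 and 5.50 FPKM in oEV-ctrl. Only oEV-EMT 2 lay within the oEV-ctrl range, and the log2 fold change was 0.25 (limma adjusted p = 0.622, standard error 0.22). *Slc39a1*, which encodes ZIP1, had 6.80, 4.26 and 2.35 FPKM in oEV-EMT and 2.52, 3.73 and 4.15 FPKM in oEV-ctrl. Its log2 fold change was 0.23 (limma adjusted p = 0.759, standard error 0.31) and turned to -0.071 without oEV-EMT 1. *Slc39a6*, which encodes ZIP6, the partner of ZIP10, had 2.55, 0.856 and 1.25 FPKM in oEV-EMT and 1.48, 1.14 and 1.61 FPKM in oEV-ctrl. Its log2 fold change of 0.032 (limma adjusted p = 0.963, standard error 0.26) turned to -0.23 without oEV-EMT 1 and also turned under median-of-ratios scaling.

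By mean level in oEV-ctrl, the order was *Mt1*, *Mt2*, *Mtf1*, *Slc30a5*, *Slc39a4*, *Slc30a9*, *Slc39a10*, *Slc39a1*, *Slc30a1* and *Slc39a6*. Between *Mt2* and *Mtf1* the level dropped from 4205 to 21.1 FPKM. In that group the values of *Mt1* and *Mt2* overlapped, as did those of *Slc39a4* with *Slc30a5* and with *Slc30a9*, and those of *Slc39a1* with *Slc30a1*. The other neighbours in that order did not overlap. In oEV-EMT, *Slc39a4* lay at 19.3 ± 5.003 FPKM beside *Mtf1* at 22.5 ± 4.23 FPKM (SD, n = 3 each), within their spread.

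All 24 genes of the SLC30 and SLC39 families in the lists, members included, were then taken. Of these, 17 were tested. The most abundant was *Slc39a2*, encoding the importer ZIP2, with 66.0, 70.8 and 53.4 FPKM in oEV-EMT and 48.1, 66.1 and 48.9 FPKM in oEV-ctrl (log2 fold change 0.22, adjusted p = 0.649 from limma). Of the 17, 0 passed the test over all genes, as did 0 of all 11924 genes. Without overlap, 1 lay lower in oEV-EMT, *Slc30a4*, and 5 lay higher, *Slc30a7*, *Slc30a9*, *Slc39a3*, *Slc39a4* and *Slc39a14*, beside the 4.34% and 18.1% of all genes. *Slc39a3* passed the filter only through oEV-EMT. After median-of-ratios scaling, 1 and 2 of the 16 then tested were without overlap, *Slc30a4* on the lower side and *Slc30a7* and *Slc39a4* on the higher, beside 10.3% and 9.82%.

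Among the 10 tested transporters outside the members, the median log2 fold change was 0.20, against 0.17 over all genes. *Slc30a4*, encoding ZnT4 of endosomal and secretory vesicles, had 3.79, 3.46 and 3.14 FPKM in oEV-EMT and 5.19, 6.14 and 4.50 FPKM in oEV-ctrl (log2 fold change -0.49, limma adjusted p = 0.318, standard error 0.22). *Slc30a7*, encoding ZnT7 of the Golgi, had 3.18, 2.68 and 4.14 FPKM against 1.51, 2.09 and 2.49 FPKM (log2 fold change 0.52, limma adjusted p = 0.325, standard error 0.23). *Slc39a14*, encoding ZIP14, an importer of zinc, manganese and iron, had 10.3, 13.3 and 14.2 FPKM against 5.12, 7.39 and 9.53 FPKM (log2 fold change 0.73, limma adjusted p = 0.233, standard error 0.26).

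The remaining tested transporters overlapped between the groups apart from *Slc39a3* (log2 fold change 0.24, adjusted p = 0.560 from limma). *Slc30a6*, encoding ZnT6, the partner of ZnT5, had 27.5, 24.3 and 27.2 FPKM in oEV-EMT and 12.2, 25.04 and 20.4 FPKM in oEV-ctrl. *Slc39a7*, encoding ZIP7 of the endoplasmic reticulum, spread widely, with 12.4, 10.2 and 1.32 FPKM against 8.90, 3.37 and 5.82 FPKM, and *Gm20427* shares 74.5% of the 50-base stretches of its transcripts. *Slc30a2*, *Slc39a9* and *Slc39a11* had log2 fold changes of 0.18, -0.12 and 0.026. The 7 genes that failed the filter were *Slc30a3*, *Slc30a8*, *Slc30a10*, *Slc39a5*, *Slc39a8*, *Slc39a12* and *Slc39a13*.

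**Figure D3:**
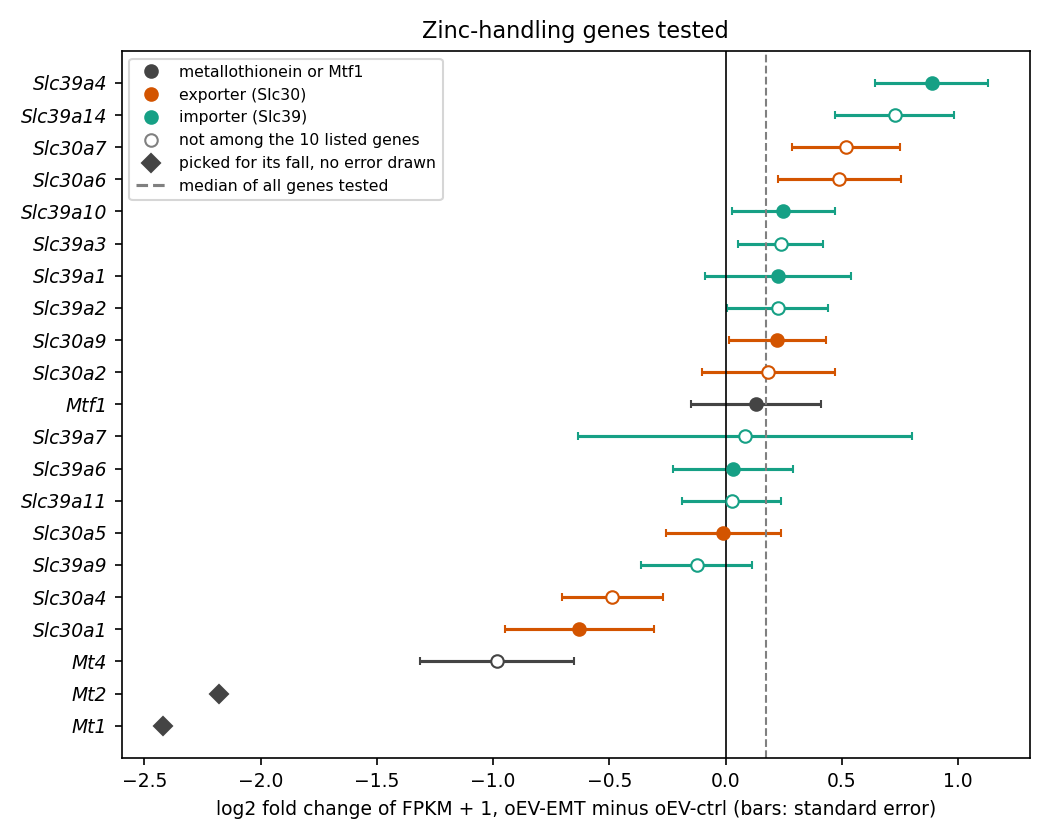
Log2 fold change of FPKM + 1, oEV-EMT minus oEV-ctrl, for every tested metallothionein, *Mtf1* and zinc transporter, with the standard error from limma (n = 3 per group) and a dashed line at the median of all genes, 0.17. *Mt1* and *Mt2*, drawn as diamonds without an error, lie at -2.42 and -2.18, *Slc30a1* at -0.63 and *Slc39a4* at 0.89.

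Of 10 listed genes linked to MTF1, 8 were tested apart from *Mt1* and *Mt2*, and 0 of these were called, as were 0 of all genes. Their median log2 fold change was 0.086, and 5 were under and 3 over the all-gene median of 0.17. The list pools *Slc30a1*, which MTF1 switches on, with *Slc39a10*, which it represses, and with *Mtf1* itself. The median and counts therefore cannot tell whether MTF1 targets followed *Mt1* and *Mt2*. *Csrp1*, encoding a LIM-domain protein, had 229, 72.7 and 62.9 FPKM in oEV-EMT and 35.5, 40.3 and 47.1 FPKM in oEV-ctrl. It lay above without overlap, as did 18.1% of all genes, with oEV-EMT 1 the highest, at a log2 fold change of 1.30 (limma adjusted p = 0.253, standard error 0.46). *Selenow*, encoding a selenoprotein, had 292, 157 and 149 FPKM against 132, 139 and 156 FPKM, with a log2 fold change of 0.42 (adjusted p = 0.476 from limma). On the lower side beside *Slc30a1* were *Slc40a1*, the iron exporter ferroportin, with a log2 fold change of -0.62 (limma adjusted p = 0.521), and *Gclc*, an enzyme of glutathione synthesis, with -0.34 (limma adjusted p = 0.530), both with overlap. After median-of-ratios scaling 1 of the 8, *Gclc*, lay lower without overlap and 1, *Csrp1*, higher, beside 10.3% and 9.82% of all genes. *Ndrg1*, the remaining gene of the rule, was at 0.043. In *Csrp1*, *Selenow* and *Ndrg1* the highest library was oEV-EMT 1, but not in the other tested genes of the list. It was also the highest in genes outside this list, such as *Sgk1* and *Klf9*. *Mt1* and *Mt2* were highest in oEV-EMT 1 only within oEV-EMT, and highest of all in oEV-ctrl 1. These orders were noticed after the values were seen.

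The genes most like *Mt1* and *Mt2* over the 6 libraries were sought by the root mean square difference of log2(FPKM + 1), each gene centred on its mean. *Mt2* was the nearest of 11923 genes to *Mt1*, at 0.29, and *Mt1* the nearest to *Mt2*. Next for both came *mt-Nd3*, a complex I subunit of the mitochondrial genome, with 318, 138 and 149.9 FPKM in oEV-EMT against 846, 557 and 823 FPKM. The differences were 0.52 from *Mt1* and 0.54 from *Mt2*. *Rassf8*, which encodes a RAS-association domain protein, followed at 0.56 and 0.55, with 10.7, 2.72 and 3.16 FPKM in oEV-EMT and 17.0, 13.1 and 13.7 FPKM in oEV-ctrl. The antisense gene *Gm45774* ranked 4 for both, and *mt-Tv* ranked 5 for *Mt1* and *Mir703* for *Mt2*. *Slc30a1* ranked 68 for *Mt1* and 59 for *Mt2*, the next member *Slc39a6* ranked 1820 and 1769, and *Slc39a4* ranked 11449 and 11383. Likeness of this kind includes the group difference that chose *Mt1* and *Mt2* and shares the libraries' depth.

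Transcript length moved with the fold changes over all genes. The median log2 fold change was 0.048 in 1163 genes with a median transcript length of at most 500 bases, 0.21 in 4525 genes over 500 and up to 1000 bases and -0.062 in 167 genes over 5000 bases. In the shortest class 12.3% of genes lay lower in oEV-EMT without overlap, against 2.90% in the next. *Mt2* belongs to the former and *Mt1* to the latter. With the length trend removed the log2 difference was -2.61 for *Mt1* and -2.26 for *Mt2*, and the log2 fold change was -0.72 for *Slc30a1* and 0.69 for *Slc39a4*.

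**Figure D4:**
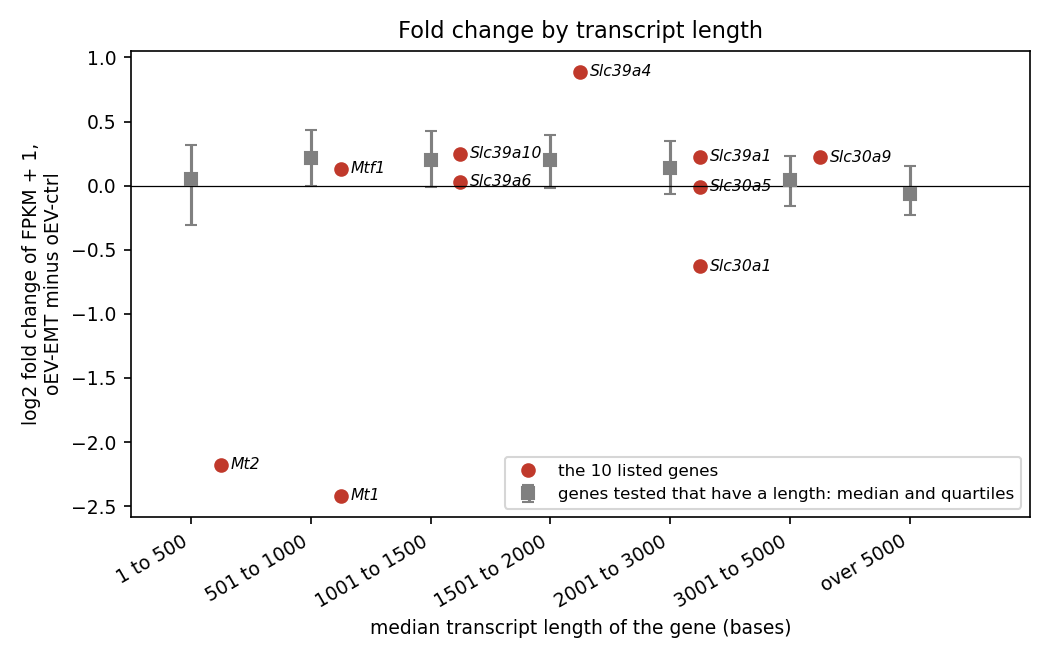
Log2 fold change of FPKM + 1 by median transcript length, with squares and bars for the median and quartiles of all tested genes of known length and circles for the 10 genes. *Mt1* and *Mt2* lie at -2.42 and -2.18, below the lower quartiles of their classes (0.0004 and -0.30), and *Slc30a1* and *Slc39a4* lie outside the quartiles of theirs.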

How the data were processed

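Libraries were prepared from polyadenylated RNA of pooled blastocysts and sequenced as read pairs. The authors aligned the reads (mm10 by the submitters' processing notes), assembled transcripts with StringTie and deposited 1 FPKM value per gene and library. The methods speak of TPM, but the deposited sums of 1293175 to 1551567 differ between libraries. The aligner and the tool versions are not given in the sources used here. Of 55487 Ensembl identifiers, 55141 matched GENCODE M21.

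Samples were grouped by their titles. Values were fitted as log2(FPKM + 1) with limma 3.58.1 in R 4.3.3 (trended, robust variance) over the 11924 genes with at least 1 FPKM in at least 3 libraries, without further scaling, with Benjamini-Hochberg adjustment over all of them. A gene was called at an adjusted p of 0.05 or less and a log2 fold change of 1 or more in size. The fit was also run on simulated data, where it missed genes changed by a log2 fold of 1, which is also the size limit of the call. A gene that was not called here may therefore still differ. Since 3 libraries against 3 give no exact p below 0.1, exact tests of single genes are not printed. Shared sequence was searched as identical stretches of 50 bases. The members and lists were chosen with earlier results of these data known. Named genes were the members, the tested metallothioneins and zinc transporters, up to 3 genes in each direction of the MTF1, copper and glucocorticoid lists, and the 5 genes nearest to *Mt1* and to *Mt2*. Python 3.11.15 and matplotlib 3.10.9 served for the other steps and the plots. Alternatives were 3 scalings, a pseudocount of 0.1, 2 other filters, a replicate block, removal of the trend with transcript length, and leaving out each library.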

Additional observations from a re-analysis of the deposited data

How the results depend on the processing

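The log2 differences of *Mt1* and *Mt2* chose these genes, so their ranges are a description. With each library left out in turn they ran from -3.21 to -2.01 for *Mt1* and from -3.02 to -1.58 for *Mt2*. Under the other alternatives they ran from -2.63 to -2.33 and from -2.39 to -2.08. The replicate block and the 2 other filters leave them at -2.42 and -2.18 by construction. Under all 14 alternatives 0 of the other members were called. Of these 8 members, 7 were tested at a total of 1000000, 5 at a mean of at least 5 FPKM and all 8 elsewhere. Their log2 fold changes stayed under the limit of 1 in size in each of these fits, so that a count of 0 says nothing of stability. *Slc30a1* lay below 0 and *Slc39a4* above 0 in every alternative that tested them. The median of the 8 relative to all genes, 0.0044, was 0.15 without a filter on low values and -0.12 to 0.061 with each library left out, lowest without oEV-EMT 1. The number of zinc transporters higher without overlap, 5, was 2 after median-of-ratios and 2 after upper quartile scaling, of 16 tested each (9.82% and 9.09% of all genes). It was 3 of 8 tested at a mean of at least 5 FPKM (20.8% of all genes), and 5 to 8 of 17 with each library left out, 8 without oEV-EMT 3 or oEV-ctrl 2 (30.6% and 21.8% of all genes). The number lower, 1, was 0 at a mean of at least 5 FPKM (4.69% of all genes) and 1 to 2 with a library left out, 2 without oEV-EMT 1, oEV-EMT 2 or oEV-ctrl 2 (12.6%, 6.76% and 6.54%). Fewer libraries make separation easier by construction.

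Signs turned for 4 members near 0. *Mtf1* went to -0.057 after median-of-ratios scaling, -0.074 after upper quartile scaling and -0.091 with the length trend removed. With each library left out *Mtf1* lay between -0.10 and 0.39. *Slc30a5* was 0.075 after scaling to a total of 1000000 and -0.19 to 0.17 with a library left out, and *Slc39a1* was -0.071 to 0.54. *Slc39a6* was -0.086, -0.10 and -0.19 under median-of-ratios scaling, upper quartile scaling and length correction, and -0.23 to 0.23 with a library left out. The median over all genes, 0.17 in the main fit, moved too. It was 0.011 after median-of-ratios scaling, -0.0033 after upper quartile scaling, 0.0065 with the length trend removed and 0.24 at a total of 1000000. The cause of the turns was not tested.

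Same-numbered libraries of the 2 groups shared deviations only weakly (correlations over genes of 0.12, -0.044 and 0.039). By these correlations oEV-EMT 1 and oEV-ctrl 1 matched each other best. However, oEV-EMT 2 and oEV-ctrl 3 matched each other best, as did oEV-EMT 3 and oEV-ctrl 2. The number was thus not taken as a pairing. With a replicate block, 21 genes were called over all genes in place of 0, but 0 of the 8 members, with *Slc39a4* at an adjusted p of 0.203 and *Slc30a1* at 0.282 from limma. Outside the block, genes were called over all genes only with a library left out, 17 without oEV-ctrl 3, 4 without oEV-EMT 1 and 1 without oEV-EMT 3. Among the tested metallothioneins and zinc transporters, *Mt4* (about 7 to 67 read pairs) and *Slc39a6* (about 19 to 98) rest on the fewest read pairs.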

Other observations

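Metallothioneins also bind copper, and 11 of 12 listed copper-handling genes were tested, with a median log2 fold change of 0.31 against 0.17 over all genes. Of these, 0 were called by limma, as were 0 of all genes. At an unadjusted p of at most 0.05 from limma, 0 were lower and 2 higher in oEV-EMT, beside 2.55% and 12.8% of all genes. Without overlap, 0 were lower and 4 higher, beside 4.34% and 18.1%. *Atox1*, the copper chaperone of the secretory pathway, had 1111, 968 and 1305 FPKM in oEV-EMT and 654, 873 and 682 FPKM in oEV-ctrl, without overlap (log2 fold change 0.62, adjusted p = 0.207 from limma). *Commd1*, a regulator of copper export, had 109, 113 and 135 FPKM against 91.9, 87.7 and 84.5 FPKM (log2 fold change 0.42, adjusted p = 0.318 from limma). *Slc31a1*, the copper importer CTR1, and *Sco1*, a copper chaperone of cytochrome oxidase, also lay higher without overlap and were named after their values were seen. After median-of-ratios scaling *Sco1* was the only gene of the list without overlap. *Slc31a2* overlapped at a log2 fold change of 0.41, and *Cox11*, *Cox17* and *Sco2* had log2 fold changes of -0.12, -0.038 and -0.0072.

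Glucocorticoids are known inducers of metallothionein genes, and 6 of 8 listed glucocorticoid-responsive genes were tested, with a median log2 fold change of 0.052. Of these, 0 were called by limma, as were 0 of all genes, and at an unadjusted p of at most 0.05, 0 were lower and 1, *Sgk1*, higher, beside 2.55% and 12.8% of all genes. *Sgk1*, also the only gene of the list without overlap (18.1% of all genes higher), is a kinase of ion transport and had 197, 120.3 and 146 FPKM in oEV-EMT and 76.9, 103 and 99.1 FPKM in oEV-ctrl, higher without overlap but overlapping after median-of-ratios scaling (log2 fold change 0.71, adjusted p = 0.213 from limma). *Tsc22d3* and *Dusp1* had log2 fold changes of 0.37 and 0.067, and *Klf9* and *Nr3c1* of -0.15 and -0.14, all with overlap.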
